A study of Mus musculus with 16 samples.

Results

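The genes described here are ATF4 (activating transcription factor 4), several of the genes it controls and the enzymes that make serine, in the liver of obese mice given the glucagon receptor agonist G108 with or without extra dietary protein. They are the rows of the deposited expression table whose Ensembl identifiers carry the symbols Atf4, Atf5, Ddit3, Trib3, Asns, Chac1, Phgdh, Psat1, Psph or Aldh1l2 in the GRCm38 annotation. These 10 symbols matched 11 of the 55487 rows, because Ddit3 has 2 Ensembl entries. The second of these, of 105 exonic bases, lies within Ddit3 on the same strand, so reads of the pair cannot be told apart, and it is called the Ddit3 short entry below. The factors lie on separate chromosomes, Atf4 at chr15:80255184-80257541 (plus strand), Atf5 at chr7:44812256-44816658 (minus) and Ddit3 at chr10:127290774-127296288 (plus), with the short entry at chr10:127290829-127293753. Of their targets, Trib3 is at chr2:152337422-152344032 (minus), Chac1 at chr2:119351229-119354381 (plus) and Asns at chr6:7675169-7693254 (minus). The enzymes Phgdh (chr3:98313170-98339990), Psat1 (chr19:15904678-15947337), Psph (chr5:129765558-129787449) and Aldh1l2 (chr10:83487450-83534140) are all on the minus strand. Each value is over all exons of the gene.

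Liver RNA came from 16 male C57BL6/J mice, 4 per group, with 1 library per mouse, and depths of 27.8 to 45.0 M reads. According to the sample records the mice were 10 weeks old when a 60 kcal% high-fat diet began and ate it for 8 weeks, so that every group, controls included, was obese by diet. The 4 groups were vehicle or G108 at 2.5 nmol/kg, injected under the skin once a day over 22 days, on a high-fat diet with either standard protein (SP, D08091803) or high protein (HP, D08091801). By the study's methods, mice were moved to the SP or HP diet before the injections began. They were culled after a 4 h fast. The age and the day of culling in the study's methods differ from those in the records. G108 is a long-acting analogue of glucagon that acts on the glucagon receptor, which in the liver is found mainly on hepatocytes. The comparisons ask whether G108 altered these genes and whether protein in the diet altered that response.

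ATF4 is the effector of the integrated stress response. Kinases that sense amino acid shortage, misfolded protein in the endoplasmic reticulum, lack of haem or viral RNA phosphorylate the initiation factor eIF2, which lowers general translation but raises that of the Atf4 mRNA, so the level of this mRNA is not a measure of the protein. ATF4 binds C/EBP-ATF response elements and induces genes for amino acid uptake and synthesis, glutathione breakdown and feedback control. Serine is made from a glycolytic intermediate by the enzymes of Phgdh, Psat1 and Psph in turn, and its hydroxymethyl carbon enters the folate cycle, whose mitochondrial arm includes Aldh1l2. Liver also takes up and degrades serine, glycine and other amino acids, a process that glucagon promotes.

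Among the members with a promoter in the RefSeq table, which held 9 of the 10 symbols and not Aldh1l2, the core letters of the C/EBP-ATF response element were found in the promoters of Asns, Chac1 and Trib3. The letters searched were TGATGNAA on both strands, in windows from 250 bases before to 50 bases after each start, and 3.97% of 32851 RefSeq mouse promoters held them. These 3 windows of 30 bases are shown because they are the members' promoters with a match. Sequences are from RefSeq, build GRCm38.p6, 5′ to 3′ on the strand of the gene, with the match in capitals. The match lies on the strand of the gene in Asns and on the other strand in Chac1 and Trib3.
Asns: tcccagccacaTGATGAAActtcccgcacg
Chac1: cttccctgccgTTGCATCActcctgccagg
Trib3: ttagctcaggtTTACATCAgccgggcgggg
The Asns window is chr6:7693214-7693243 (minus strand), with the match at bases -23 to -16 from the annotated start. The Chac1 window is chr2:119351038-119351067 (plus strand), with the match at bases -193 to -186. In Trib3 the window is chr2:152344028-152344057 (minus strand), and the match covers bases 15 to 22 from the RefSeq start. All these distances count from RefSeq starts, which differ from the gene positions given above. By those positions the Trib3 match lies just outside the gene and the Asns match inside it. The cAMP response element TGACGTCA, the site of the factor activated below the glucagon receptor, was in 1.79% of all promoters and in 0 of the 9 members'. These matches describe letters in a window and not binding.

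Expression is given as normalised TPM, that is the deposited TPM (a level per exon length, scaled to the same total in every library) divided by a median-of-ratios factor of the library. Factors were 1.17 to 1.54 in G108 SP, 0.839 to 1.24 in G108 HP, 0.681 to 0.964 in vehicle SP and 0.833 to 1.07 in vehicle HP, so the choice of scale matters for each G108 comparison. Without the factors, the median of all 11839 genes tested was 0.60 higher in log2 with G108 on SP and 0.09 higher on HP, against -0.01 and 0.00 with them. The factors are medians over 11591 of these same genes, so a median near 0 with them is set in advance. It does not show which scale is right. Fold changes are on the log2(normalised TPM + 1) scale, which understates changes of low genes, and a gene was called at a Benjamini-Hochberg adjusted p under 0.05 in limma over all genes tested. Whole liver was sequenced, so fewer cells of a type and less RNA per cell cannot be told apart.

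Hepatocyte markers (Alb and 4 others) summed to 21318 to 30344 normalised TPM in every library, as the label liver requires. The summed markers of Kupffer cells, stellate cells, cholangiocytes, blood cells and lymphocytes overlapped between vehicle and G108 on both diets. Those of sinusoidal endothelium were lower in G108 SP (13.93 to 15.38) than in vehicle SP (17.05 to 20.12), with 0 of its 4 genes called, and the part of this in the results was not tested. Markers of adipocytes, skeletal muscle and exocrine pancreas summed to at most 1.62 in any library, with Lep and Prss2 at 0 in all 16. Across all marker lists the only gene called was Alas2 of the blood list, which was higher with G108 in the mean over both diets (log2 fold change 0.33, adjusted p = 0.0370), a call lost without 10 of the 16 libraries (highest adjusted p = 0.0836).

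Atf5 had the highest level of the 11 entries in every group, with means from 108.1 to 193.9 normalised TPM, followed by Atf4 with 33.7 to 40.3. In vehicle SP these neighbours overlapped because of 1 mouse, and in the other groups they did not. Ddit3 stood next among the main entries at 6.26 to 9.16. Trib3, Chac1 and Psph lay between 0.476 and 2.90, and neighbours among these 3 overlapped in both vehicle groups. With vehicle their order was Trib3, Chac1, Psph, and with G108 Psph came first and Asns stood above Chac1. In both G108 groups, however, Psph overlapped Trib3 and Asns overlapped Chac1. Asns had a mean of 0.144 in vehicle SP. Phgdh, Psat1 and Aldh1l2 were at or below 0.0994 in all group means and neighbours in this order overlapped in every group. By level the first and second enzymes of serine synthesis were close to the limit of detection in these livers, while the last enzyme, Psph, was read more often.

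**Figure D1:**
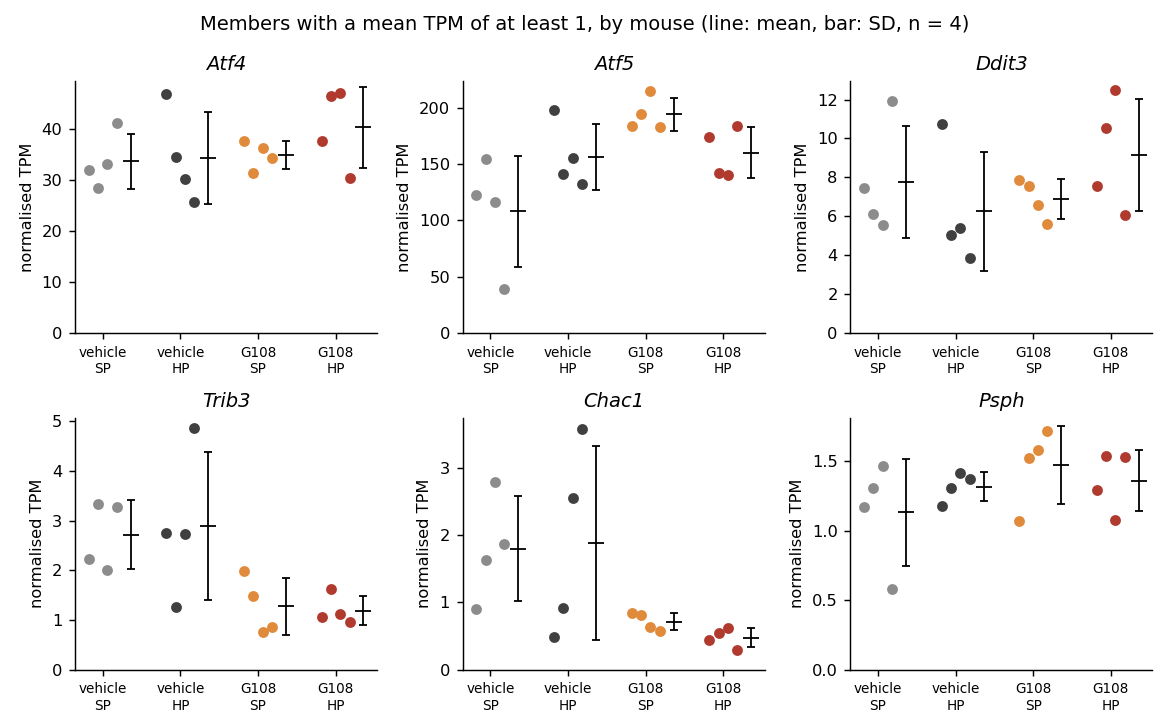
Normalised TPM of the 6 member genes whose mean TPM reached 1 (vertical axes, linear from 0) in each of the 16 mice by group, with mice 1 to 4 from left to right in a group, the mean as a line and the SD as a bar (n = 4). Trib3 and Chac1 sit lower in both G108 groups than in most vehicle mice, Atf4 and Ddit3 overlap in all groups, and a single vehicle SP mouse holds Atf5 at 38.9.

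Of the 7 entries with a mean TPM of at least 1 that could be tested, 0 were called for G108 on SP and 0 on HP by limma, where 2.72% and 1.22% of all genes tested were called. At an unadjusted p under 0.05, 3 of the 7 differed on SP (Atf5 higher, Trib3 and Chac1 lower) and 2 on HP (Trib3 and Chac1 lower), against 17.7% and 11.3% of all genes. Averaged over both diets, a contrast added after the values on each diet had been seen, 2 of the 7 were called, Trib3 and Chac1, both lower with G108. In that contrast 5.81% of all genes were called and 17% had an unadjusted p under 0.05. The median log2 fold change of the 7 was 0.06 on SP, 0.04 on HP and 0.15 over both diets.

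Atf4 itself passed no test on normalised TPM. Its normalised TPM was 32.01, 28.5, 33.0 and 41.3 in the vehicle SP mice and 37.7, 31.3, 36.4 and 34.4 in the G108 SP mice. On HP it was 46.8, 34.5, 30.3 and 25.7 with vehicle and 37.6, 46.4, 47.0 and 30.4 with G108. The groups overlapped throughout, and the log2 fold change was 0.06 ± 0.18 (SE) on SP and 0.24 ± 0.18 on HP (adjusted p = 0.863 and 0.702). On the scale as deposited Atf4 was 0.82 higher on SP (adjusted p = 0.00158), in a fit that called 77.6% of all genes on that diet.

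Atf5, a close relative of ATF4 that is also translated under stress and is abundant in liver, had 123, 155, 116 and 38.9 normalised TPM in the vehicle SP mice. With G108 on SP the values were 184, 194, 215 and 183, all above every vehicle SP mouse. Such separation upward was seen in 4.52% of all genes tested. The log2 fold change was 1.00 ± 0.31 (SE) with an adjusted p of 0.109 in limma. It was 0.57 (adjusted p = 0.0796) without vehicle SP mouse 4, the lowest value, and was called with a covariate for the GC dependence of the libraries (1.17) and with array quality weights (0.56). It was not called by limma on only the 8 libraries compared (adjusted p = 0.308) or with mouse number as a block (adjusted p = 0.142). On the deposited scale Atf5 was 1.77 higher (adjusted p = 0.00182).

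On HP the Atf5 values were 198, 141, 155 and 132 with vehicle and 174, 142, 140 and 184 with G108, a log2 fold change of 0.04 ± 0.31. Vehicle HP exceeded vehicle SP by 0.68 (adjusted p = 0.832), with overlapping values, and by 0.245 without vehicle SP mouse 4. The difference between the G108 effects on the 2 diets was -0.96 ± 0.44 for Atf5 (adjusted p = 0.575), so it was not called, and it was -0.53 without the same mouse.

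Ddit3 encodes CHOP, a factor that promotes cell death in prolonged stress. Its normalised TPM was 7.45, 6.11, 5.56 and 11.9 in vehicle SP and 7.88, 7.55, 6.59 and 5.58 in G108 SP, values that overlapped. On HP it was 10.8, 5.03, 5.40 and 3.87 with vehicle and 7.57, 10.5, 12.5 and 6.05 with G108, again with overlap. The log2 fold change was -0.11 ± 0.27 (SE) on SP and 0.52 ± 0.27 on HP (adjusted p = 0.841 and 0.516). On the deposited scale the SP value turned to 0.58 (adjusted p = 0.0204). The Ddit3 short entry, counted from 43 to 149 reads per library, gave 0.13 on SP and 0.54 on HP, and its reads may be those of Ddit3.

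Trib3 and Chac1 are both induced by ATF4 and CHOP in stressed cells. Trib3 encodes a pseudokinase that restrains AKT and ATF4 signalling, and Chac1 an enzyme that cleaves glutathione. Both had lower means with G108 on each diet, and both fell in the mean over the 2 diets.

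For Trib3, normalised TPM was 2.23, 3.34, 2.01 and 3.27 in vehicle SP and 2.00, 1.47, 0.768 and 0.857 in G108 SP. These groups did not overlap, a separation downward that 4.69% of all genes tested showed, although the closest pair, at 2.01 and 2.00, lay next to each other. On HP the values were 2.74, 1.25, 2.73 and 4.86 with vehicle and 1.06, 1.62, 1.11 and 0.969 with G108. Vehicle HP mouse 2 was the only vehicle mouse within the range of the G108 mice. The log2 fold change was -0.72 ± 0.24 (SE) on SP and -0.76 ± 0.24 on HP (adjusted p = 0.146 and 0.190), and on the deposited scale the SP value was -0.25 (adjusted p = 0.298). Over both diets Trib3 fell by 0.74 on the log2 scale (SE 0.17, adjusted p = 0.0188), from a mean of 2.80 to 1.23 normalised TPM. This call stood with each of the 16 libraries left out in turn (adjusted p 0.00330 to 0.0473) and on the deposited scale, where it fell by 0.46 (adjusted p = 0.0218), and it was lost with no filter on low values (adjusted p = 0.05004).

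Chac1 had 0.903, 1.63, 2.78 and 1.86 normalised TPM in vehicle SP and 0.839, 0.810, 0.632 and 0.573 in G108 SP, without overlap. Of all genes tested, 4.69% showed such separation downward. With vehicle on HP the values spread widely, at 0.486, 0.917, 2.55 and 3.57, while with G108 on HP they were 0.445, 0.543, 0.623 and 0.292. Vehicle HP mouse 1 was the only vehicle mouse within the range of the G108 mice. Counts behind these values ran from 13 to 136 reads per library. The log2 fold change was -0.67 ± 0.29 (SE) on SP and -0.83 ± 0.29 on HP (adjusted p = 0.242 and 0.230), and on the deposited scale the SP value was -0.29 (adjusted p = 0.332). Over both diets Chac1 fell by 0.75 (SE 0.20, adjusted p = 0.0419), from a mean of 1.84 to 0.595, and on the deposited scale by 0.53 (adjusted p = 0.0288). Leaving out any library but vehicle SP 1, vehicle HP 1 or vehicle HP 2 ended this call (adjusted p 0.00740 to 0.0911), as did limma's voom on reads recovered from the TPM (adjusted p = 0.0561) and no filter on low values (adjusted p = 0.102). Limma with the covariate for the GC dependence of the libraries also ended it (-0.67, adjusted p = 0.0611).

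Over the 16 libraries, the genes outside the list whose levels followed Trib3 most closely were Pcmtd2 (Pearson r = 0.92), Stat5b (0.90) and Erbb3 (0.88), out of 5356 genes whose mean TPM reached 5. For Chac1 they were Selenoo (0.89), Slc27a2 (0.86) and Rab4a (0.86). All 16 points share group differences and library scaling, so these values are descriptions.

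**Figure D2:**
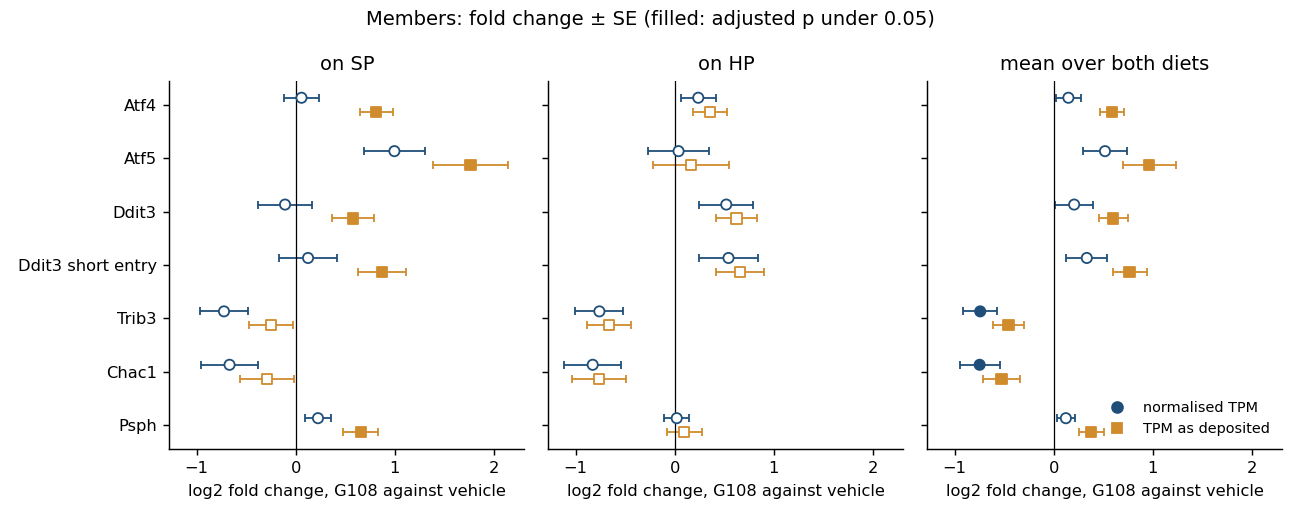
Log2 fold change ± SE of the 7 tested entries, G108 against vehicle on SP, on HP and in the mean over both diets (horizontal axes), from limma on normalised TPM (circles) and on TPM as deposited (squares), with filled symbols at an adjusted p under 0.05. On normalised TPM only Trib3 and Chac1 over both diets are filled, and on the deposited scale 5 of 7 entries are filled on SP, all of them higher.

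Asns encodes asparagine synthetase, the best known amino acid response gene. Its mean TPM of 0.528 left it out of the fit above, but the TPM steps returned whole reads. These were 18, 13, 4 and 5 reads in vehicle SP against 38, 82, 78 and 73 in G108 SP, and 55, 17, 20 and 5 in vehicle HP against 30, 35, 23 and 66 in G108 HP. In normalised TPM, vehicle SP had 0.256, 0.193, 0.0595 and 0.0680, and G108 SP had 0.545, 1.10, 0.895 and 0.759, a ratio of means of 5.73 without overlap. Of the genes in the limma fit, which left out Asns, 4.52% showed such separation upward. A two-sided exact permutation test of Asns gave p = 0.0286, the smallest that 4 against 4 can give, and 0.366 after adjustment over the 16 such tests. On HP, vehicle had 0.728, 0.176, 0.297 and 0.0787 and G108 had 0.380, 0.517, 0.343 and 0.887, a ratio of 1.66 with overlap (exact p = 0.257). Vehicle HP mouse 1 was the only vehicle mouse within the range of the G108 mice.

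To test Asns against all genes, voom was run on the recovered reads of 18184 genes with a mean of at least 5 reads, a step added after the data were seen. Asns was the 1 member of 11 called on SP, with a log2 fold change of 2.67 ± 0.60 (SE, adjusted p = 0.0230), where 2.21% of genes were called. Without vehicle SP 2, 3 or 4 or G108 SP 2, 3 or 4 the adjusted p ranged from 0.0535 to 0.0780, so this call needed nearly all mice of the comparison. On HP it was 1.03 ± 0.51 (adjusted p = 0.513), and 0 of 11 were called where 0.847% of all genes were. The difference between diets was -1.64 ± 0.79 (adjusted p = 0.610). Over both diets Asns rose by 1.85 ± 0.39 (adjusted p = 0.00920), and this stood with each library left out (adjusted p 0.00236 to 0.0258). Asns and Trib3 were the 2 of 11 members called in that contrast, in opposite directions, where 4.8% of genes were called. In limma with no filter on low values Asns was not called on SP (log2 fold change 0.67, adjusted p = 0.0578). Over both diets that fit called it (0.45, adjusted p = 0.0437).

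The enzymes of serine synthesis showed no difference that passed a test on normalised TPM or on recovered reads. Phgdh, which encodes the first and committed enzyme, gave 7, 3, 0 and 10 reads in vehicle SP, 3, 6, 8 and 14 in G108 SP, 3, 8, 1 and 4 in vehicle HP and 4, 1, 7 and 6 in G108 HP. The 0 in vehicle SP mouse 3 allows a level of up to 0.0437 TPM on the deposited scale, for counting error only. Ratios of group means were 1.29 on SP and 1.25 on HP (exact p = 0.657 for each), with overlap.

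For Psat1, the aminotransferase of the second step, 5, 7, 2 and 7 reads were found in vehicle SP and 3, 7, 20 and 11 in G108 SP. On HP there were 4, 5, 2 and 0 with vehicle and 2, 13, 7 and 4 with G108. The 0 allows up to 0.0265 TPM on the deposited scale. The ratio of means was 1.60 on SP (exact p = 0.371) and 2.79 on HP (exact p = 0.200). In voom on the recovered reads over both diets the log2 fold change was 0.54 ± 0.56 (SE) for Phgdh and 0.90 ± 0.51 for Psat1. Neither was called (adjusted p = 0.708 and 0.417). Whether more reads or more mice would show a difference was not tested.

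Psph, the phosphatase of the last step, was measured from 68 to 262 reads. It had 1.17, 1.31, 1.47 and 0.584 normalised TPM in vehicle SP and 1.07, 1.52, 1.58 and 1.72 in G108 SP. On HP the values were 1.18, 1.31, 1.41 and 1.37 with vehicle and 1.30, 1.54, 1.07 and 1.53 with G108. All groups overlapped, and the log2 fold change was 0.23 ± 0.13 (SE) on SP and 0.02 ± 0.13 on HP (adjusted p = 0.360 and 0.973). On the deposited scale Psph was 0.66 higher on SP (adjusted p = 0.00491) and 0.38 higher over both diets (adjusted p = 0.0198). Those limma fits called 77.6% and 62% of all genes.

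Aldh1l2 encodes the mitochondrial folate dehydrogenase that oxidises formyl-tetrahydrofolate. Its reads were 3, 6, 5 and 0 in vehicle SP, 8, 4, 17 and 21 in G108 SP, 2, 4, 1 and 1 in vehicle HP and 14, 10, 11 and 3 in G108 HP. Means were 0.0188 and 0.0531 normalised TPM on SP and 0.00897 and 0.0483 on HP. The 0 allows up to 0.0101 TPM on the deposited scale. The groups overlapped by 1 G108 mouse on each diet, with exact p = 0.0857 on SP and 0.0571 on HP. In voom over both diets the log2 fold change was 1.91 ± 0.56 (adjusted p = 0.0595), higher with G108 but not called. It was called without G108 SP 2 (adjusted p = 0.0368) or without G108 HP 4 (adjusted p = 0.0247), the lowest G108 mouse on each diet. It was not called in the other 14 fits that left out 1 library (highest adjusted p = 0.116).

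**Figure D3:**
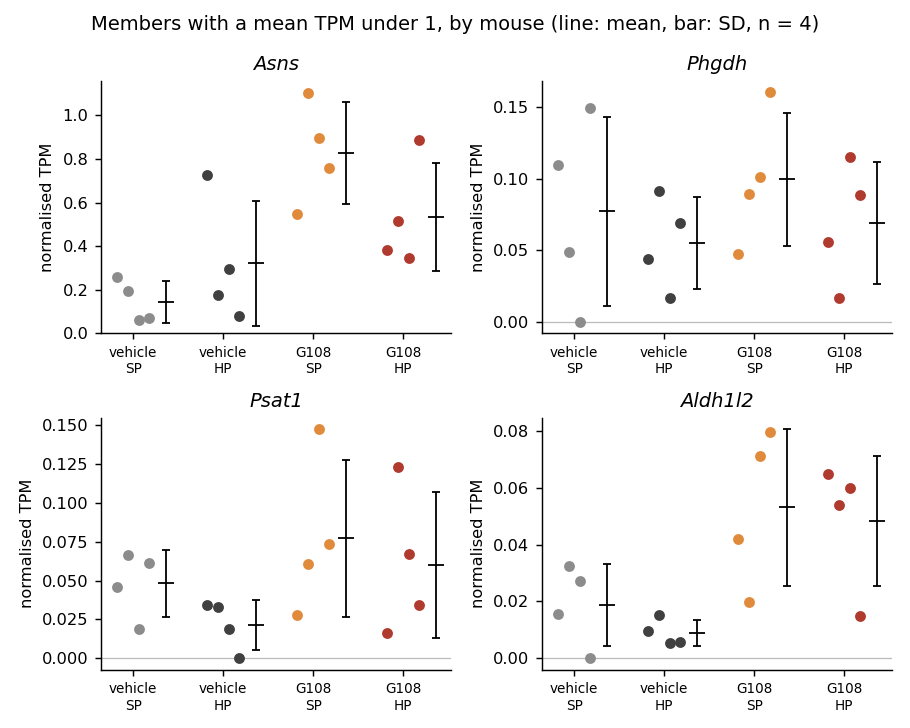
Normalised TPM of the 4 members with a mean TPM under 1 (vertical axes, linear, with Asns on a larger scale than the others) in each mouse by group, with mean and SD (n = 4). Asns is higher in all G108 SP mice (0.545 to 1.10) than in all vehicle SP mice (0.0595 to 0.256), and the other 3 genes reach at most 0.160 in any mouse.

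For extra protein, no member passed a test. In limma, 0 of the 7 tested entries and 0% of all genes were called for HP against SP with vehicle, and likewise 0 of 7 and 0% for HP against SP with G108. At an unadjusted p under 0.05 there were 1 of 7 with vehicle (Atf5, higher on HP) and 0 of 7 with G108, against 3.94% and 5.4% of all genes. The test of whether the G108 effect differed between diets called 0 of 7 and 0% of all genes, with 1 of 7 (Atf5) and 7.21% at an unadjusted p under 0.05. Exact tests of the 4 low members gave adjusted p-values of 0.366 to 0.800 for the diet comparisons. The comparisons of G108 and of diet share the same 16 mice and are not independent of each other. On the deposited scale 5 of the 7 were called on SP, all higher, 0 on HP, where 1.11% of genes were called, and 7 over both diets, where 62% of genes were called, Trib3 and Chac1 lower and the other 5 higher.

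Genes around the members were taken from lists of known function, and their counts stand beside the 2.72% (SP), 1.22% (HP) and 5.81% (both diets) of all genes called, and the 17.7%, 11.3% and 17% at an unadjusted p under 0.05. Among 28 other ATF4 and amino acid response targets, 15 could be tested and 1 rose with G108 on SP, Slc38a2, which encodes an amino acid transporter induced by amino acid shortage and by glucagon. Its mean was 10.6 ± 2.49 normalised TPM (SD, n = 4) in vehicle SP and 17.9 ± 2.60 in G108 SP, a log2 fold change of 0.72 (adjusted p = 0.0296), and on HP 0.63 (adjusted p = 0.0971). Over both diets 2 of the 15 rose, Slc38a2 by 0.67 (adjusted p = 0.00281) and Cth, which makes cysteine from cystathionine, by 0.99 (adjusted p = 0.0174). None fell, and the list's median was 0.10 on SP and 0.12 on HP. With TPM as deposited 13 of the 15 were called on SP, all higher. Fgf21 and Gdf15, hormones induced by ATF4, had 2.51 and 3.64 normalised TPM in vehicle SP and 3.39 and 4.69 in G108 SP (adjusted p = 0.525 and 0.673). Left below the limit were 13 genes of this list, among them Atf3, Slc7a11, Mthfd2 and Pck2.

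Among the kinases and regulators upstream of ATF4, 0 of 14 tested were called on SP or HP, with 1 at an unadjusted p under 0.05 on SP and 2 on HP, and medians of 0.01 and -0.01. Over both diets Ppp1r15b, a regulatory subunit that directs a phosphatase to eIF2, rose by 0.29 (adjusted p = 0.0218), a call lost without vehicle HP 3, G108 SP 3 or G108 SP 4 (highest adjusted p = 0.0568). Cytosolic aminoacyl-tRNA synthetases, many of them ATF4 targets, had 0 of 20 called, with 4 (SP) and 1 (HP) at an unadjusted p under 0.05 and medians of 0.09 and 0.02. Mitochondrial chaperones and proteases had 0 of 9 called, with 5 higher on SP and 1 lower on HP at an unadjusted p under 0.05, and medians of 0.26 and -0.01. All 14, 20 and 9 genes of these lists were called higher on SP on the deposited scale.

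Of 14 targets of the ATF6 and XBP1 arms of the unfolded protein response, 0 were called on SP or HP. At an unadjusted p under 0.05 there were 2 and 3, all lower. The median was -0.07 on SP and -0.15 on HP, and on the deposited scale 8 of the 14 were called on SP, all higher. Over both diets Xbp1, which encodes the factor of the second arm, fell by 0.53 (adjusted p = 0.0144), and group means were 57.5 and 41.5 normalised TPM on SP and 53.4 and 34.3 on HP for vehicle and G108. On the deposited scale Xbp1 fell by only 0.09 (adjusted p = 0.645). Hspa5, which encodes the chaperone BiP, stood at 64.3 and 66.1 on SP and 77.5 and 66.4 on HP.

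Several enzymes that use or degrade serine and glycine were higher with G108 on SP. Of 12 tested genes for folate and glycine enzymes fed by serine, 3 rose and 0 fell, with 8 higher at an unadjusted p under 0.05 and a median log2 fold change of 0.40, beside the 2.72% called and 17.7% at an unadjusted p under 0.05 among all genes. On the deposited scale, where 77.6% of all genes were called, all 12 were called higher, with a median of 1.15. Gnmt, which methylates glycine, went from 507 ± 181 to 1347 ± 101 normalised TPM (SD, n = 4), a log2 fold change of 1.49 (adjusted p = 0.00739). Sds, which deaminates serine to pyruvate, went from 192 ± 77.0 to 413 ± 31.6, a change of 1.19 (adjusted p = 0.0413). Cbs, which condenses serine with homocysteine, went from 36.3 ± 12.1 to 74.9 ± 11.2, a change of 1.07 (adjusted p = 0.00661).

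On HP 0 of these 12 were called, with 2 higher at an unadjusted p under 0.05 and a median of 0.17. Vehicle HP stood at 836 for Gnmt, 255 for Sds and 46.3 for Cbs, and G108 HP at 1278, 492 and 63.8, while 0 of the 12 were called for HP against SP with vehicle and 0 for the difference between the G108 effects. Over both diets 4 rose, Sds by 1.10 (adjusted p = 0.00436), Gnmt by 1.03 (adjusted p = 0.00439), Cbs by 0.76 (adjusted p = 0.00315) and Sdsl, a relative of Sds, by 0.62 (adjusted p = 0.0492). The call of Sdsl was lost without any library but vehicle SP 1 or vehicle HP 1 (highest adjusted p = 0.104). On SP, the call of Sds was lost without 11 of the 16 libraries (highest adjusted p = 0.121), that of Slc38a2 without vehicle SP 2 or 3 or G108 SP 2, 3 or 4 (highest adjusted p = 0.117), and all 4 on SP were lost when only the 8 libraries compared entered the fit (adjusted p 0.0554 to 0.120). Proliferation genes, another use of new serine, had 1 of 9 above the limit and 0 called.

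**Figure D4:**
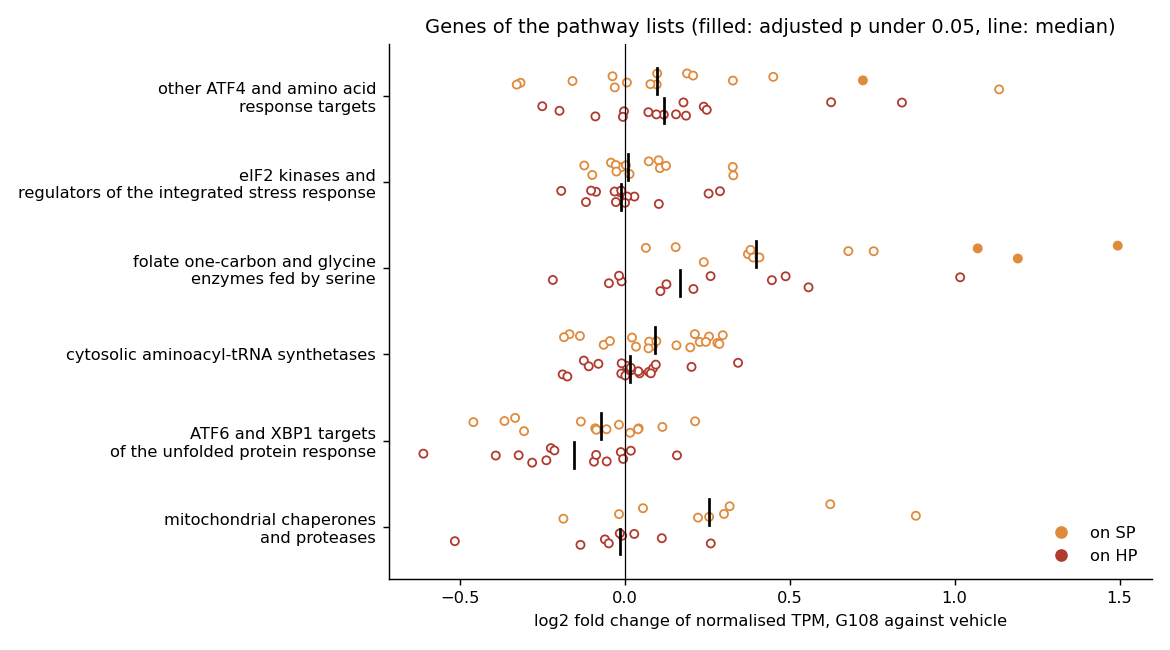
Log2 fold change of normalised TPM, G108 against vehicle, for each tested gene of 6 lists (rows), on SP (upper points of a row) and HP (lower points), with filled points at an adjusted p under 0.05 and the median of each list as a line. The 4 filled points are Slc38a2 among the ATF4 targets and Cbs, Sds and Gnmt among the enzymes fed by serine, all on SP.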

How the data were processed

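RNA from 16 mouse livers was sequenced. The authors checked reads with FastQC (0.11.8), aligned them to GRCm38 with HISAT2 (2.0.5), counted them per gene with featureCounts (tools and build as named in the submitters' processing notes) and deposited TPM in 1 table, whose columns were matched to mice by label. Each column totals 1e+06, so depth was recovered from low values. Of 139184 values of at most 20 reads, 98.8% lay within 0.02 of a whole read, and member values were whole to 0.000288.

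The 11839 genes whose mean TPM reached 1 were fitted in limma (3.58.1, R 4.3.3) with an intensity trend on log2(TPM / size factor + 1), with 1 mean per group. Size factors were medians of ratios over 11591 genes, after the authors' use of DESeq2 (1.36.0), which was not run here. The 6 contrasts were adjusted by Benjamini-Hochberg over genes. Members below that limit were tested by exact permutation (two-sided). The contrast over both diets, and voom for genes with a mean of at least 5 recovered reads, were added after the data were seen. Alternatives are given in the closing section. With 4 mice per group, p-values reflect the spread between these mice. The fit was also run on simulated counts. These did not hold the size factors that differ between the groups here, so that run does not test the choice of scale.

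Members and lists were chosen with earlier results of these data known. All members are named, with up to 3 called genes per list, direction and contrast, and the 3 genes most like each called member, Trib3 and Chac1 in the added contrast. Fgf21, Gdf15, Hspa5, Alas2, Sdsl and the untested genes were named outside this rule, Alas2 and Sdsl after their values were seen. Symbols and positions came from GENCODE for GRCm38 (55227 identifiers) and promoters from RefSeq.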

Additional observations from a re-analysis of the deposited data

How the results depend on the processing

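The number of members called was unchanged for HP against SP with vehicle, for HP against SP with G108 and for the test between diets under every alternative run (0 of the members in each fit). For G108 on SP, 0 became 5 with TPM as deposited, 2 with array quality weights (Atf5 0.56 and Trib3 -0.94), 1 with a covariate for the GC slope of the libraries (Atf5 1.17) and 1 with voom at a mean of at least 5 reads (Asns). On HP, 0 became 1 with array quality weights (Chac1 -1.04), and leaving out each library in turn gave 0 to 1, with Trib3 called without vehicle HP 2 (-0.99, adjusted p = 0.0455). Over both diets, 2 became 7 with TPM as deposited, 4 with array quality weights, 1 with no filter on low values (Asns, adjusted p = 0.0437, while Trib3 and Chac1 were lost), 1 with voom at a mean TPM of 1 or more (Trib3), 2 with voom at a mean of at least 5 reads (Asns and Trib3) and 0 at a mean TPM of at least 5, where neither Trib3 nor Chac1 was tested. Leaving out each library gave 1 to 2, and with the GC covariate the 2 called were Trib3 and Atf5 (0.68, adjusted p = 0.0447). Genes of the pathway lists called were 4 on SP, and 77 with TPM as deposited, 2 with no filter, 0 with only the groups compared, 17 with array quality weights and 20 with the GC slope. They were 2 to 6 without each library. On HP, 0 became 2 with TPM as deposited and 11 with array quality weights, and 0 to 1 without each library. Over both diets 8 became 64, 20 and 13 with TPM as deposited, array quality weights and the GC slope, and 6 to 11 without each library. The cause of these shifts was not tested.

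Small log2 fold changes changed sign. Ddit3 on SP was 0.58 with TPM as deposited and 0.052 with array quality weights, Atf4 on SP -0.017 and the Ddit3 short entry on SP -0.061 with the GC slope, and Psph on HP -0.0083 with array quality weights. Without each library, Atf4 on SP ranged from -0.014 to 0.16, Ddit3 on SP from -0.23 to 0.098, the Ddit3 short entry on SP from -0.019 to 0.36, Atf5 on HP from -0.035 to 0.16 and Psph on HP from -0.014 to 0.084.

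No clear pairing of mice by the numbers of the labels was seen. The r between deviations of the same-numbered mice lay between -0.57 and 0.53 over 24 pairs, 8 of them over 0.1, and 4 of 16 libraries were closest to their own number. With 4 mice per group these values cannot settle whether the numbers mark anything shared. With the replicate block, the members called were 0 on SP, 0 on HP and 2 over both diets (Trib3 adjusted p = 0.0443, Chac1 0.0472), and the genes of the lists called were 2, 0 and 6. With 4 to 82 reads for Asns and 0 to 21 for Phgdh, Psat1 and Aldh1l2, depth limits these members.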
